A study of Mus musculus with 48 samples.

Results

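The 10 genes described here serve de novo lipogenesis, the pathway by which liver makes fatty acids from sugar. They are Srebf1, Acly, Acaca, Acacb, Fasn, Elovl6, Scd1, Me1, Thrsp and Angptl8. They were taken by symbol, with earlier results of these data known, and all 10 were found among the 29331 genes counted. Livers of male wild-type mice were collected for messenger RNA sequencing from mice given lipopolysaccharide (LPS, the bacterial outer-membrane component used to provoke systemic inflammation) and from negative controls (NC). LPS was given continuously for 7 days. Day-7 livers of both arms cover 6 zeitgeber times (ZT, counted in hours from lights on), spaced 4 h apart from ZT1 to ZT21. LPS livers were also taken at ZT21 on days 3 and 5, and on days 9 and 11, after the administration had ended. Each of the 16 groups had 3 libraries, 48 in all. The NC livers were all of day 7, so every comparison of another day with NC at ZT21 used the same 3 NC libraries. The strain, age, dose and route, and what NC mice received in place of LPS, are not stated in these sources. The labels call the replicates biological without saying that each was 1 mouse, so p-values cover the variation among these libraries only.

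Fatty acid synthesis starts from citrate exported from mitochondria. Acly encodes ATP citrate lyase, which splits citrate to acetyl-CoA in the cytosol, and Acaca encodes the cytosolic acetyl-CoA carboxylase that makes malonyl-CoA, the building block used by fatty acid synthase (Fasn) to make palmitate. Elovl6 lengthens palmitate, and Scd1 puts in the double bond that gives monounsaturated fatty acids. Acacb encodes a carboxylase on the mitochondrial membrane whose malonyl-CoA restrains fatty acid import for oxidation, and Me1, malic enzyme, supplies NADPH for synthesis. Srebf1 encodes the sterol regulatory element-binding factor through which insulin raises these genes in liver. Thrsp is a small nuclear protein induced by thyroid hormone and carbohydrate, and Angptl8 is a secreted protein made after feeding. In the liver of mice, which feed at night, several of these transcripts are known to rise with feeding and to fall with fasting.

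The stretches just upstream of transcription starts were read because Srebf1 and its partners act at promoters. RefSeq windows (GRCm38.p6) of 250 bases before a start were matched by symbol for 9 of the 10 genes, 12 windows in all, and Scd1 had no entry. Windows are shown for Srebf1, the transcription factor, for Fasn and Acly, whose levels moved most closely together, and for Angptl8, which followed another course. These 4 windows hold no annotated exon base and end 1 base before the start. Capitals mark CCAAT boxes (CCAAT), half-sites for nuclear receptors (AGGTCA) and GC boxes (GGGCGG) on either strand, and neighbouring CCAAT boxes on opposite strands may overlap.
Srebf1 outermost start, chr11:60222582-60222831, minus strand: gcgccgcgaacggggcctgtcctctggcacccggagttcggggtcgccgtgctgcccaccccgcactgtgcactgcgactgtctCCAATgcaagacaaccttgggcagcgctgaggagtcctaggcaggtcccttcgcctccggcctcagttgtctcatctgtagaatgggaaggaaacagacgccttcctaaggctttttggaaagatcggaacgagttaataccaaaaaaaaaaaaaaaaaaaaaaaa
Fasn, chr11:120824548-120824797, minus strand: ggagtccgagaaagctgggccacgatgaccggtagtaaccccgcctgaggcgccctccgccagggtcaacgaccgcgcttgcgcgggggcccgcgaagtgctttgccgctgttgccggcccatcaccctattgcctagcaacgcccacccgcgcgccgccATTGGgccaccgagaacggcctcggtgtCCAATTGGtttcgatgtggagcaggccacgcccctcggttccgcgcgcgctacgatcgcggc
Acly, chr11:100528001-100528250, minus strand: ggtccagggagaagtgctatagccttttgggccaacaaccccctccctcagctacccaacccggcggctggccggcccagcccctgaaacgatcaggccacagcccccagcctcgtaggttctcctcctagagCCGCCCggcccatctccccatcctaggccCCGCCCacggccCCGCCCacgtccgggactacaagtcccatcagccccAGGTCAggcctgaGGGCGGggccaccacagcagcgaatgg
Angptl8, chr9:21835260-21835509, plus strand: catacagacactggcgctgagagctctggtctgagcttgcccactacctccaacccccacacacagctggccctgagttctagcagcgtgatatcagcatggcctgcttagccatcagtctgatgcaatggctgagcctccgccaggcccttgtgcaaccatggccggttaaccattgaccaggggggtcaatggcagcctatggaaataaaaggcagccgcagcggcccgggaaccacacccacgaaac

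The Fasn window holds 3 CCAAT boxes, 2 of which share bases. In the Acly window there are 4 GC boxes and 1 half-site, the Srebf1 window shown has 1 CCAAT box, and the Angptl8 window has none of the motifs searched. Over all windows of the 9 genes, CCAAT boxes were found in 5 genes, GC boxes in 3 and half-sites in 2. Counted by window, as in the shares below, these were 6, 4 and 2 of the 12 windows. The sterol regulatory element (TCACNCCAC) and the E-box (CACGTG) were found in 0 of the 9. Not all windows lie before a gene's outermost annotated start. The only windows of Acaca (chr11:84195188-84195437) and Acacb (chr5:114165268-114165517) lie inside the annotated genes. Those of Thrsp and Elovl6 hold 180 and 129 annotated exon bases. For Acaca and Acacb, the stretch before the outermost start was thus not read. Among all 32851 RefSeq mouse windows of this length, the shares with a match were 33.8% for CCAAT, 32.7% for GC boxes, 14% for half-sites, 6.02% for the E-box and 1.05% for the sterol regulatory element. RefSeq lists 3 separate starts for Srebf1, and counts per gene do not tell their transcripts apart. Its windows not shown differ from the one above. That at chr11:60210472-60210721 has 1 CCAAT box and 2 GC boxes, and that at chr11:60220628-60220877 has 2 GC boxes. A match or its lack describes only these letters.

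On GRCm38 the 10 genes lie on 6 chromosomes, 4 of them on chromosome 11: Srebf1 (chr11:60199089-60222581), Acaca (chr11:84129672-84401651), Acly (chr11:100476353-100528000) and Fasn (chr11:120805846-120824547). Me1 (chr9:86581371-86695953) and Angptl8 (chr9:21835510-21837347) are on chromosome 9. Thrsp is at chr7:97412938-97417730, Scd1 at chr19:44394455-44407879, Elovl6 at chr3:129532355-129638495 and Acacb at chr5:114146535-114250761. The strand setting used in counting is not known from these sources. Exons of Srebf1 share 109 bases with Rai1 on the other strand, those of Elovl6 34 bases with Gm35986 and those of Me1 30 bases with A330041J22Rik, each under 2% of the gene's exon length. Reads that fit both Scd1 and its close relative Scd2 could have been split either way.

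The libraries held 28.2 to 45.3 M counts, with a median of 32.9 M. Values below are CPM, the count of a gene relative to the TMM-scaled library total, per M counts, given in replicate order, and a gene is called where its p from the edgeR quasi-likelihood F-test, adjusted by Benjamini-Hochberg over all genes tested, is under 0.05. All 10 genes passed the filter on low counts in every comparison. On day 7 the first principal component (15.1% of variance) set apart 4 LPS libraries at 63.1 to 82.6, with the next library at 28.2. They were ZT1 replicate 2, ZT13 replicate 2 and ZT21 replicates 1 and 3. The mean of the 10 genes, on the log2 scale and relative to NC of the same ZT, was −0.91 in that ZT1 library, 1.28 in the ZT13 library and 2.02 and 1.45 in the ZT21 libraries. The other 14 day-7 LPS libraries lay between −0.66 and 0.69. A time of day read from 19 clock genes also departed from some labels. The day-3 libraries labelled ZT21 read 6.4 to 7.1 h and the day-5 libraries 1.0, 0.6 and 4.5 h, while days 9 and 11 read 21.5 to 23.3 h and NC libraries were within 2.4 h of their label. Days 3 and 5 are therefore compared below with NC at ZT21 and also with NC at ZT5 and ZT1. These times are near the clock readings of most of these libraries, but day-3 replicate 3 (7.1 h) lay nearer to ZT9 and day-5 replicate 3 (4.5 h) nearer to ZT5. On days 3, 5 and 9, replicates 1 and 2 were closer to each other than to replicate 3, with median chi-square of 2.28, 1.73 and 1.43. The values of days 5 and 9 were the lowest of the 48 replicate pairs. All were above counting noise (0.455), but that cannot show whether replicates 1 and 2 came from separate mice. They were counted as separate.

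**Figure D1:**
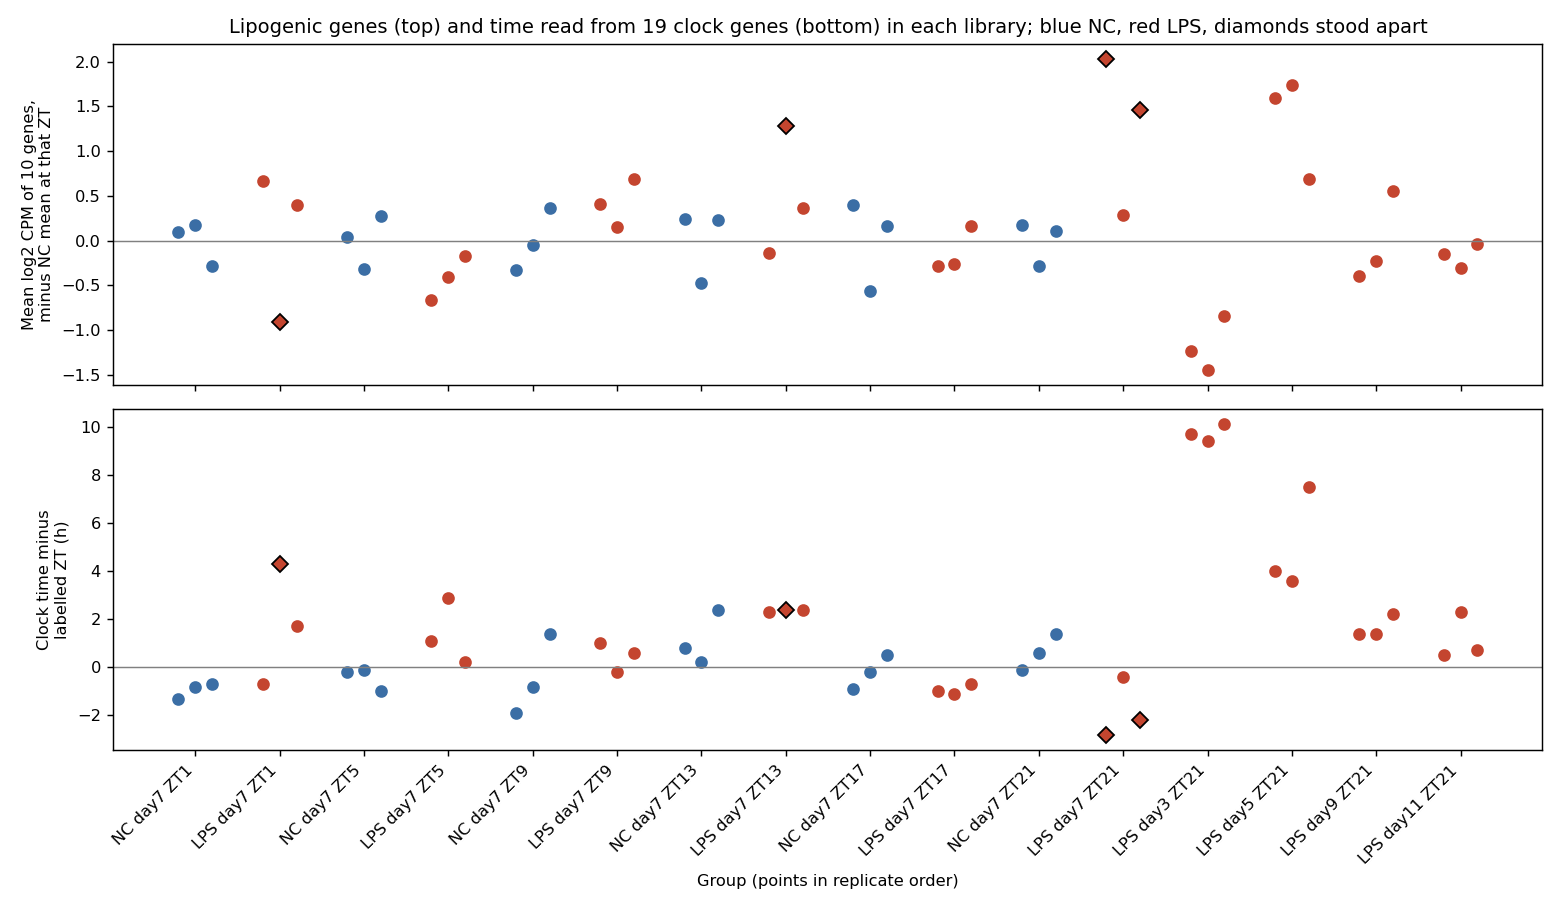
The upper panel plots the mean log2 CPM of the 10 genes in each of the 48 libraries minus the NC mean at the labelled ZT, and the lower panel the time read from 19 clock genes minus the labelled ZT in hours, with 3 points per group in replicate order. LPS ZT21 replicate 1 is highest in the upper panel at 2.02, the day-3 libraries lie at −0.84 to −1.44 with LPS ZT1 replicate 2 of day 7 among them at −0.91, and in the lower panel days 3 and 5 lie 3.6 to 10.1 h above 0.

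All 8 hepatocyte markers, Alb among them, were detected in each of the 48 libraries. Adipose tissue makes fatty acids too, and its markers were looked at for that reason. The defining adipocyte transcripts Adipoq, Lep, Plin1 and Retn together had 0 counts in 37 libraries and 2 to 26 in 10, and 831 in LPS ZT13 replicate 2. That library also had the highest Cfd (24.8 CPM, against a median of 0.59), with Adipoq at 6.49 and Plin1 at 6.26. The summed level of the 8 adipocyte markers was 36.6 to 69.2 CPM in LPS at ZT13, highest in replicate 2, and 22.9 to 31.3 in NC. Adrb3 and Tshz1 were present in every library and made up most of the sum in the other ZT13 libraries. In LPS ZT13 replicate 2, Cfd, Adipoq, Plin1, Retn and Lep together made up more of it than Adrb3 and Tshz1. The part of these adipocyte transcripts in the ZT13 values below was not tested.

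In NC livers, per kilobase of exon, Scd1 was the most abundant of the 10, at a mean of 1704 CPM per kb. Thrsp followed at 356, Angptl8 at 109 and Fasn at 94.5. Srebf1 (67.4), Me1 (64.2) and Acly (62.4) had like levels. Elovl6 stood at 23.1, Acacb at 16.5 and Acaca, the enzyme that feeds Fasn, at 7.36 CPM per kb. The lengths merge all annotated exons of a gene (17074 bases for Acaca). Exons that liver transcripts lack would lower a value, so the order is approximate.

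Over the day in NC livers, Thrsp had the largest 24 h swing. It read 931, 1185 and 379 CPM at ZT1, then 501, 288 and 575 4 h later (ZT5), and 42.9, 90.6 and 302 at ZT9. They were 534, 222 and 718 at ZT13, 1227, 619 and 895 at ZT17, and 2049, 1660 and 1830 at ZT21. The 3 libraries at ZT21 stood above all other NC libraries, and the lowest value was at ZT9. The fitted curve peaked at ZT20.8 with a 7.68-fold peak-to-trough ratio (edgeR adjusted p = 0.000733). Srebf1 also passed, with a smaller 1.76-fold swing peaking at ZT21.6 (adjusted p = 0.0295). Its lowest NC group was ZT13 at 223, 203 and 236 CPM and its highest group was ZT21 at 495, 530 and 558. The test called 2 of the 10 genes, and 22.5% of all genes tested. The Srebf1 call held in 15 of 18 fits that left out 1 NC library. It was lost without ZT13 replicate 2 (adjusted p just over 0.05), ZT21 replicate 2 (0.0572) or ZT21 replicate 3 (0.0674). Thrsp was called in all 18 fits. Fitted swings of the other 8 in NC ran from 1.08-fold for Me1 to 2.58-fold for Elovl6, none called, and 4 of the 10 passed when the 4 LPS libraries that stood apart were left out of the shared fit, where 5301 of all genes were called in place of 3719.

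In LPS livers on day 7, 6 of the 10 genes had a 24 h swing, against 16% of all genes. Srebf1 swung 2.42-fold with a peak at ZT18.8 (edgeR adjusted p = 0.0016), and Angptl8 6.12-fold with a peak at ZT17.4 (0.0109). Thrsp swung 5.11-fold (0.0103). The remaining calls were Elovl6 at 6.47-fold (0.00405), Fasn at 4.43-fold (0.0101) and Acly at 4.31-fold (0.0106). Without LPS ZT21 replicate 1, Acly and Fasn were lost, with adjusted p of 0.125 and 0.107. Tested directly, rhythm differed between arms for 0 of the 10 and for 0.169% of all genes, and adjusted p for the 10 ran from 0.357 to 0.84. DESeq2 also called 0, and 0 of the 10 had an unadjusted p under 0.05 in edgeR, against 14.8% of all genes. That a gene passed in 1 arm and not in the other is thus not a tested difference.

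**Figure D2:**
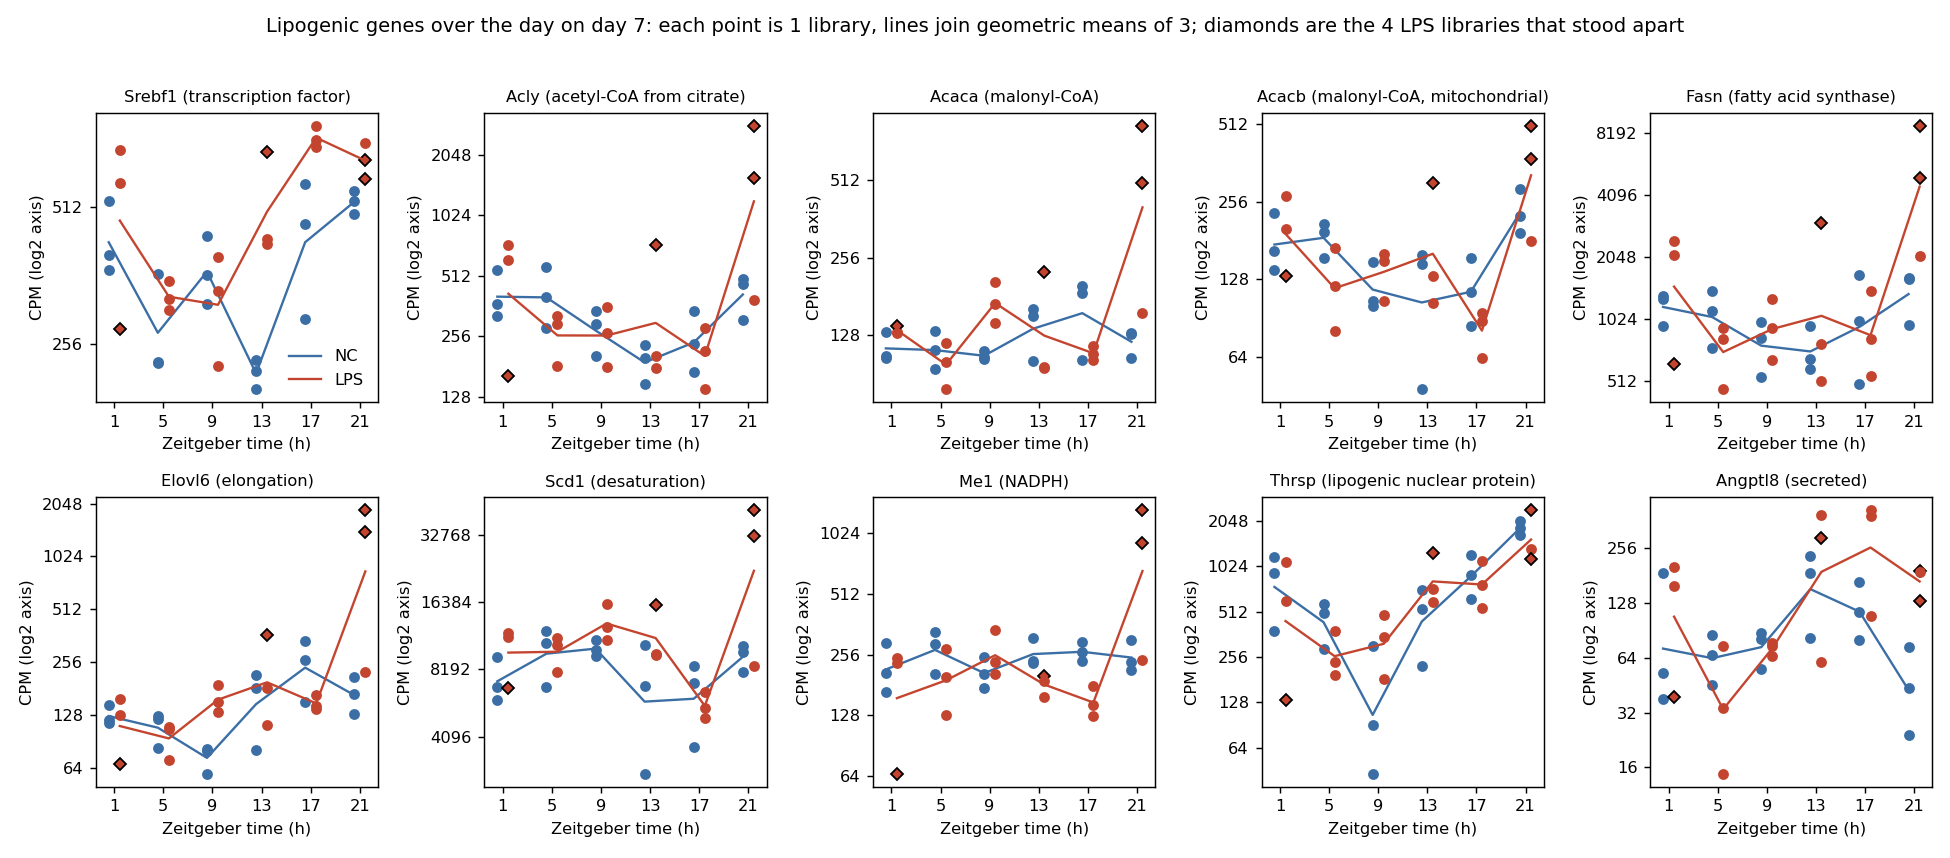
Each panel plots CPM on a log2 axis against zeitgeber time in hours for 1 gene on day 7, with 1 point per library in NC (blue) and LPS (red) and lines joining geometric means of 3; diamonds mark the 4 LPS libraries that stood apart. Thrsp in NC runs from 42.9 CPM at ZT9 to 2049 at ZT21, and for Fasn, Acly, Acaca, Elovl6, Scd1 and Me1 the 2 highest LPS points are the diamonds at ZT21.

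Averaged over the 6 ZTs of day 7, Srebf1 was the single gene of the 10 that differed between LPS and NC, against 9.34% of all genes, with 5.53% higher. It was 1.34-fold higher with LPS (log2 change 0.42, SE 0.11, adjusted p = 0.0154), with 15 of 18 LPS libraries above the NC mean of their ZT, and it was called in all 36 fits that left out 1 library. Without the 4 libraries that stood apart the change was 0.44 (adjusted p = 0.0123), and without ZT21 it was 0.44 (0.0489). The median change of the 10 was 0.40, against 0.01 over all genes, and at an unadjusted p under 0.05 there were 6 of 10 and 26.5% of all genes. Me1 was nearest to no change, and Angptl8 had the highest value, 0.59 (adjusted p = 0.171). In the same average 7 of 8 neutrophil and 3 of 6 liver endothelium markers were higher, and 1 each of the Kupffer cell, lymphocyte and cholangiocyte markers, but 0 of 8 hepatocyte markers was called. Their part was not tested. Scd1 (0.51, adjusted p = 0.0568) and Elovl6 (0.55, 0.0779) were nearest to the threshold. Without the 4 libraries Scd1 was 0.21 and Elovl6 0.11.

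At ZT13 Srebf1 was higher with LPS. Its CPM were 425, 680 and 436 in LPS and 223, 203 and 236 in NC. The groups did not overlap, as for 10.9% of all genes in this direction, and the highest value was in the library with adipocyte transcripts. The change was 2.35-fold (log2 1.23, SE 0.26, edgeR adjusted p = 0.0099), the 1 call among the 10 genes at ZT13, where 3.18% of all genes were called, 1.85% as higher. Liver endothelium markers were higher at this time too, 3 of 6, summing to 151 to 177 CPM against 88.6 to 119. So was 1 of 6 lymphocyte markers, with sums of 5.32 to 14.1 against 0.94 to 3.96. Neutrophil sums were 2.85 to 27.3 against 0.51 to 1.63. The library with adipocyte transcripts also had the highest Col1a1 (132 CPM, against a median of 18.5), Col3a1 (303 against 54.2), Dcn and Des of the 48. The stellate cell markers Lrat and Reln were highest elsewhere. The part of these cell types was not tested. Without the library with adipocyte transcripts the Srebf1 change was 0.96 with an adjusted p of 0.0971, and without all 4 libraries that stood apart 0.96 with 0.029. In the same library Fasn read 2991 CPM against 511 and 774 in the other two LPS libraries and 942, 581 and 652 in NC. Acly read 733 against 179 and 204, and Acacb 303 against 104 and 132. Me1, the NADPH-supplying enzyme, was lower in all 3 LPS libraries (157, 201 and 190) than in NC (238, 232 and 309), but its change of −0.49 was not called, and 10.1% of all genes were lower without overlap.

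At ZT1, ZT5, ZT9 and ZT17 none of the 10 genes was called. The edgeR test called 0.357%, 0.0121%, 0.453% and 0% of all genes at these times, and at an unadjusted p under 0.05 the 10 gave 0, 0, 1 and 1 calls, against 13.1%, 7.73%, 11.9% and 8.92% of all genes. DESeq2 called 0 of the 10 at each of the 4 times. At ZT9, LPS libraries lay above all NC libraries for Acaca, Elovl6 and Scd1, that is 3 of 10 genes against 10.7% of all genes. Elovl6 was 133, 152 and 190 CPM in LPS and 59.5, 82.2 and 79.9 in NC, a change of 1.09 (adjusted p = 0.368). At ZT17, Srebf1 was 694, 775 and 722 in LPS and 577, 291 and 471 in NC (change 0.71, adjusted p = 0.399). Me1 went the other way there, at 127, 145 and 178 in LPS and 297, 237 and 262 in NC (change −0.83, adjusted p = 0.587). Neither pair of groups overlapped, where 10.1% of all genes were higher and 9.53% lower without overlap. At ZT1, the LPS library that stood apart was the lowest of the 3 for Acly, Fasn, Me1 and Thrsp, and its clock genes read 5.3 h. Thrsp read 133 CPM in it and 1089 and 601 in the others, and Me1 66.0 against 247 and 233. The same library had the highest level of all 8 neutrophil markers among the 48, with a sum of 141 CPM against a median of 5.40 in its group. It also had the highest level of the Kupffer cell marker Marco. Over the 3 LPS libraries at ZT1 the Kupffer cell sums ran from 85.0 to 495 CPM and the hepatocyte sums from 72351 to 116244. The part of these cell types was not tested.

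At ZT21 on day 7, 6 of the 10 genes were higher with LPS: Acly, Acaca, Fasn, Elovl6, Scd1 and Me1. Of all genes, 8.9% were called there, 5.52% as higher. The high values were in LPS replicates 1 and 3, whose clock genes read 18.2 and 18.8 h, against 20.6 h in replicate 2. Elovl6 was 1872, 227 and 1406 CPM in LPS and 210, 131 and 168 in NC (6.96-fold, log2 2.80, SE 0.52, edgeR adjusted p = 0.00343). Acaca was 833, 156 and 498 against 131, 104 and 128 (4.14-fold, log2 2.05, SE 0.38, adjusted p = 0.00333). LPS replicate 2 stood just above the NC range for both genes. Fasn read 8905, 2064 and 4981 in LPS and 1622, 950 and 1598 in NC (3.86-fold, adjusted p = 0.0405), also without overlap, a pattern seen upwards in 12.5% of all genes. Acly was 2850, 389 and 1565 against 466, 308 and 494 (3.83-fold, 0.0369). Scd1 reached 42276 and 32434 CPM in replicates 1 and 3, with 8495 in replicate 2 and 7955, 9784 and 10439 in NC (2.98-fold, 0.0209). Me1 was 1322, 242 and 913 against 234, 214 and 302 (3.33-fold, 0.0141). For Acly, Scd1 and Me1, replicate 2 lay inside the NC range.

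The other 4 genes did not pass at this time. Srebf1 was 591, 711 and 652 CPM in LPS and 495, 530 and 558 in NC, a change of 0.31 (edgeR adjusted p = 0.479). Its highest value was in replicate 2, where the enzymes were lowest. Angptl8 was 193, 189 and 130 against 73.1, 24.1 and 43.6 (3.65-fold, adjusted p = 0.0954), with all 3 LPS libraries above NC. Thrsp read 2411, 1327 and 1151 against 2049, 1660 and 1830, a change of −0.17. Acacb was 504, 180 and 374 against 286, 193 and 226, a change of 0.60.

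Replicates 1 and 3 are those that stood apart, and without the 4 such libraries 0 of the 10 genes was called at ZT21. The changes of the 6 were then 0.42 for Elovl6, 0.37 for Acaca, 0.57 for Fasn, −0.12 for Acly, −0.14 for Scd1 and −0.05 for Me1, from LPS replicate 2 as the only LPS library. Without LPS replicate 1 alone 0 were called, without replicate 3 alone 2, and without replicate 2 alone 6. Leaving out NC replicate 1, 2 or 3 gave 3, 2 and 3, with Acaca and Elovl6 called each time. Hepatocyte markers summed to 105701 to 123694 CPM in LPS and 106506 to 120341 in NC at this time, and 3 of the 8 were called lower. Neutrophil markers summed to 2.63 to 21.1 CPM against 0.28 to 0.51. Stellate cell sums were 271 to 364 against 156 to 190, and cholangiocyte sums 48.6 to 111 against 23.8 to 28.8. Liver endothelium sums were 105 to 133 against 85.9 to 103, and lymphocyte sums 2.19 to 4.01 against 1.53 to 1.74. Kupffer cell sums overlapped, and adipocyte sums were lower, at 22.8 to 30.96 against 31.01 to 35.6. Adrb3 and Tshz1 made up most of these adipocyte sums. Adipoq, Lep, Plin1 and Retn together had 0 counts in each LPS library and 5, 0 and 0 in NC. The part of these cell types in the ZT21 changes was not tested. In bulk tissue, a change in the share of a cell type cannot be told apart from a change of RNA per cell.

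The interaction of LPS with ZT was called for Elovl6 (edgeR adjusted p = 0.0441) and Acaca (0.0446), that is 2 of 10 genes, against 1.7% of all genes. For both, the LPS change was highest at ZT21 and lowest at ZT17 (Elovl6 2.80 and −0.75, Acaca 2.05 and −0.58). Neither was called without the 4 libraries that stood apart, nor without ZT21, where adjusted p were 0.251 and 0.278. Elovl6 was called in 10 and Acaca in 9 of 36 fits that left out 1 library. With a replicate block or with no filter on low counts neither was called, while DESeq2 called both, with 1725 of all genes called.

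The course at ZT21 started low. On day 3 of LPS, Thrsp, Scd1, Acacb and Me1 were lower than in NC at ZT21 and Angptl8 was higher, 5 of 10 genes against 20.5% of all genes, 10.3% in each direction. Thrsp fell furthest. It read 106, 76.4 and 152 CPM on day 3 and 2049, 1660 and 1830 in NC (log2 change −4.06, SE 0.45, edgeR adjusted p = 5.08e-05). Scd1 was 1824, 1492 and 1153 against 7955, 9784 and 10439 (−2.66, SE 0.47, 0.00137). Acacb was 33.0, 26.7 and 82.2 against 286, 193 and 226 (−2.32, SE 0.43, 0.00204). Me1 was 64.4, 64.0 and 113 against 234, 214 and 302 (−1.64, SE 0.44, 0.0182). None of these 4 pairs of groups overlapped, where 20.6% of all genes were lower without overlap. Calls of Thrsp, Scd1, Acacb and Angptl8 held in all 6 fits that left out 1 of the 6 libraries, and that of Me1 in 3, with losses without day-3 replicate 1 or 2 or NC replicate 3.

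Angptl8 went up on day 3, at 216, 160 and 233 CPM against 73.1, 24.1 and 43.6 (4.31-fold, log2 2.11, SE 0.48, edgeR adjusted p = 0.00768). Srebf1 was 706, 726 and 655 against 495, 530 and 558, again without overlap (20.8% of all genes were higher in this way), but its change of 0.39 was not called (adjusted p = 0.271). Acly (−1.17), Fasn (−1.03) and Elovl6 (−0.97) were not called either, and Acaca was at −0.15, with 122, 108 and 99.3 CPM.

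Against NC at ZT5, Scd1, Acacb, Me1 and Thrsp were lower on day 3 and Srebf1 was higher, 5 of 10 genes against 7.31% of all genes, 3.94% higher and 3.38% lower. Srebf1 at NC ZT5 was 234, 233 and 365 CPM, all below day 3, as for 16.8% of all genes (log2 change 1.33, SE 0.28, edgeR adjusted p = 0.0032). Scd1 changed by −2.74 (SE 0.43, adjusted p = 0.000179), Acacb by −1.98 (0.00472) and Me1 by −1.78 (0.00536). For Thrsp the NC values at ZT5 were 501, 288 and 575, and its change of −2.03 (adjusted p = 0.038) was smaller than against ZT21. The Thrsp call was lost in each of the 6 fits that left out 1 library, at adjusted p up to 0.158, and the other 4 calls were kept in all 6. Angptl8 was above NC ZT5 in all 3 libraries (1.63), not called (adjusted p = 0.125).

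Immune cell markers moved with day 3. Of the neutrophil markers 7 of 8 were higher than in NC at ZT21, summing to 17.2 to 23.5 CPM against 0.28 to 0.51. Kupffer cell markers, 5 of 6 higher, summed to 354 to 462 against 95.2 to 150, and lymphocyte markers, 5 of 6 higher, to 8.60 to 11.0 against 1.53 to 1.74. Hepatocyte markers, 3 of 8 lower, summed to 76999 to 97707 against 106506 to 120341 CPM. Their part in the changes of the 10 genes was not tested.

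On day 5, Srebf1, Acaca, Fasn, Elovl6 and Angptl8 were higher than in NC at ZT21, 5 of 10 genes against 11.6% of all genes, 5.91% as higher. Srebf1 was 1695, 1797 and 737 CPM against 495, 530 and 558 (2.68-fold, log2 1.42, SE 0.25, edgeR adjusted p = 0.00234). Angptl8 was 717, 658 and 211 against 73.1, 24.1 and 43.6 (11.3-fold, log2 3.49, SE 0.51, 0.00113). For both genes replicate 3 was the lowest of day 5 and still above NC. Elovl6 was 1516, 1915 and 303 (7.35-fold, 0.0221), Fasn 7342, 7831 and 2120 (4.15-fold, 0.04) and Acaca 499.7, 614 and 204 (3.63-fold, 0.0244). Replicate 3 is the library whose clock genes read 4.5 h. Calls of Srebf1 and Angptl8 held in 6 of 6 fits without 1 library, and those of Elovl6, Fasn and Acaca in 1 of 6, the fit without day-5 replicate 3. Leaving out any other library of the 6 left 2 called, as did summing replicates 1 and 2 of days 3, 5 and 9. Neutrophil markers were higher on day 5 too, 7 of 8, summing to 10.2 to 15.5 CPM against 0.28 to 0.51 in NC, with 3 of 6 Kupffer cell markers higher (sums of 153 to 174 against 95.2 to 150.4) and 2 of 6 lymphocyte markers (3.43 to 11.54 against 1.53 to 1.74). Of 8 hepatocyte markers 3 were lower, while the sums overlapped, 116616 to 119463 against 106506 to 120341. Their part in these changes was not tested.

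Scd1 on day 5 was 13662, 15558 and 19578 CPM, above NC without overlap (17.4% of all genes), and was highest in replicate 3. Its change of 0.79 was not called (edgeR adjusted p = 0.271). Thrsp was 1232, 1430 and 869, below all 3 NC libraries at ZT21, as for 16.3% of all genes (−0.65, adjusted p = 0.321). Acly was 1583, 1832 and 930 (1.78, adjusted p = 0.101), Acacb 272, 278 and 258 (0.20), and Me1 306, 349 and 357 (0.43).

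Against NC at ZT1 the same 5 genes were called on day 5, against 3.12% of all genes, 1.68% as higher: Elovl6 (log2 change 3.29, SE 0.57, edgeR adjusted p = 0.00115), Angptl8 (2.52, 0.0338), Fasn (2.29, 0.0325), Acaca (1.95, 0.00375) and Srebf1 (1.70, SE 0.28, 0.00065). Srebf1 at NC ZT1 was 528, 372 and 401 CPM. Calls of Srebf1 and Elovl6 held in 6 of 6 fits without 1 library and that of Acaca in 5, while Angptl8 was called in 2 and Fasn in 1. The count ran from 2 without day-5 replicate 2 to 6 without day-5 replicate 3. Thrsp, below NC at ZT21, was 0.50 above NC at ZT1, with overlap.

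Between days 3 and 5, 9 of the 10 genes rose and Angptl8 did not pass, against 5.91% of all genes, 3.19% as higher. Log2 changes of the 9 ran from 1.03 for Srebf1 to 3.85 for Elovl6, with Scd1 at 3.45 (11.0-fold, edgeR adjusted p = 0.00111), Thrsp at 3.41 (10.6-fold, 0.000683) and Acacb at 2.51 (5.71-fold, 0.00451). All 3 day-5 libraries were above all 3 of day 3 for each of the 9, as for 12.9% of all genes. The clock times of the groups differed too, and 4 of 6 Kupffer cell markers were lower on day 5 (sums of 153 to 174 CPM against 354 to 462) and 2 of 6 lymphocyte markers (3.43 to 11.54 against 8.60 to 11.0). Their part was not tested. Calls of Scd1, Thrsp and Acacb held in 6 of 6 fits without 1 library, Elovl6 in 5, Fasn in 4, Me1 in 3, Acly in 2 and Acaca and Srebf1 in 1, that without day-5 replicate 3. Over those fits the count of called genes ran from 3 without day-3 replicate 2 to 10 without day-5 replicate 3. With replicates 1 and 2 of days 3, 5 and 9 summed, 2 were called, Scd1 and Thrsp.

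**Figure D3:**
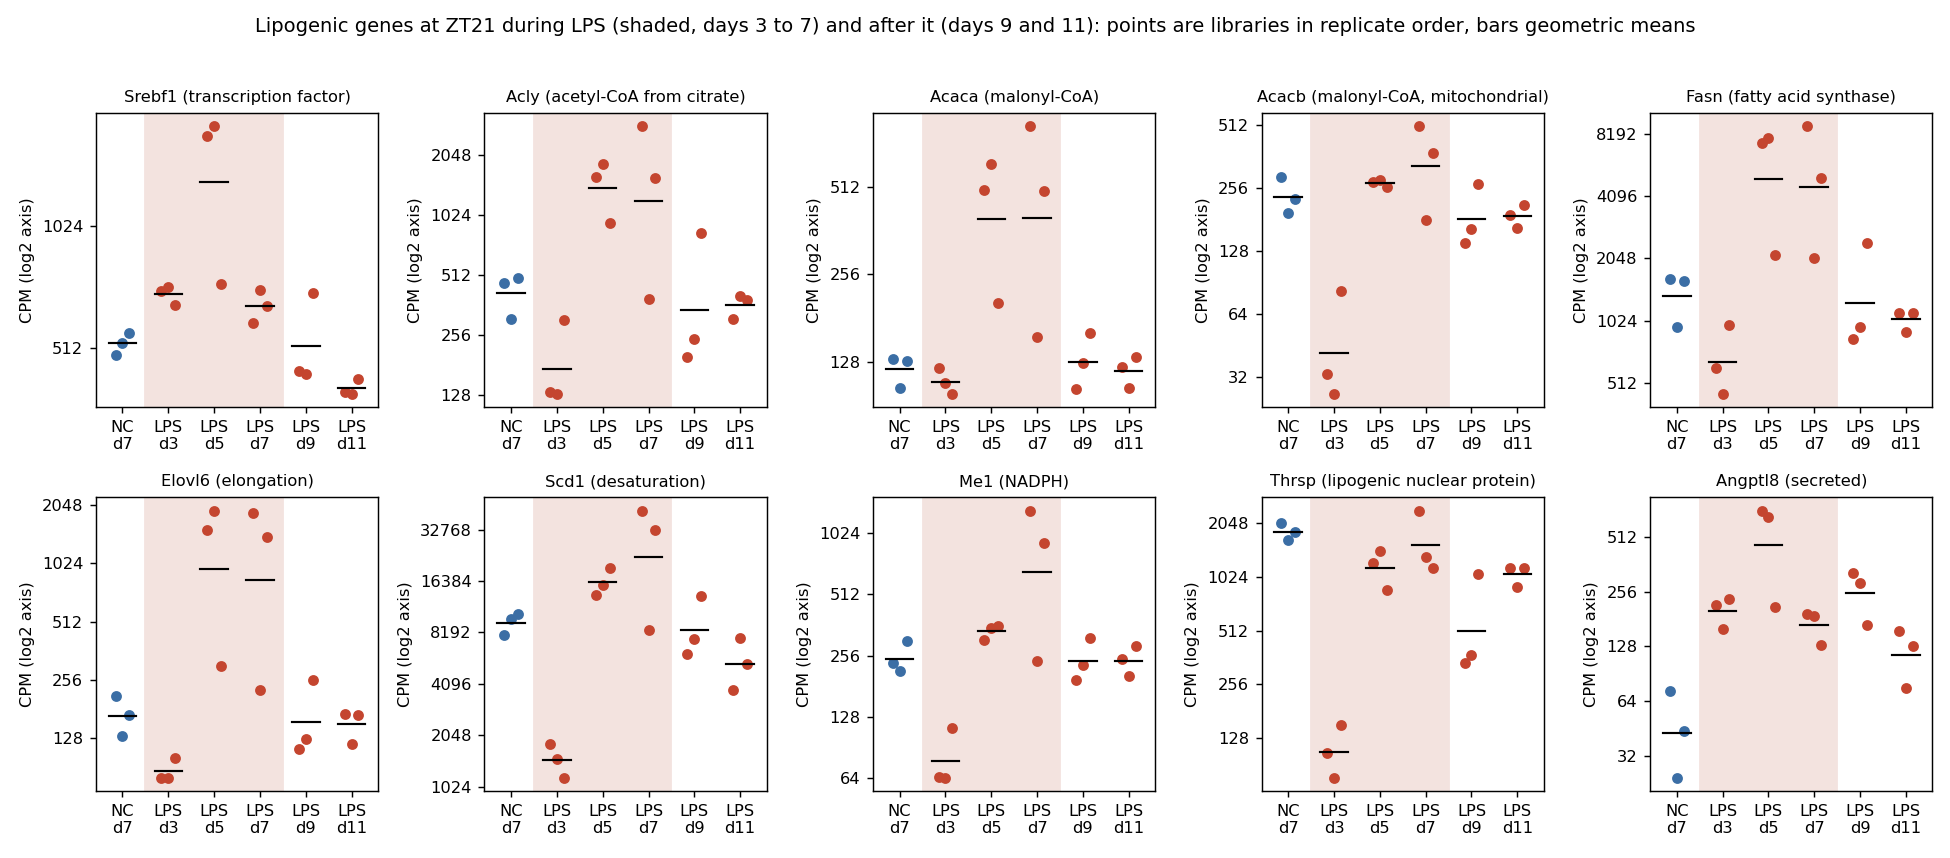
Each panel plots CPM on a log2 axis for 1 gene in NC (day 7) and in LPS on days 3, 5, 7, 9 and 11, all labelled ZT21, with 3 libraries per group in replicate order and bars at geometric means; shading marks days of LPS administration. Thrsp, Scd1, Acacb and Me1 are lowest on day 3, Srebf1 and Angptl8 highest on day 5, and on day 7 replicate 2 of LPS lies far below replicates 1 and 3 for Elovl6 (227 against 1872 and 1406 CPM).

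From day 5 to day 7, Srebf1 fell by 1.11 on the log2 scale (SE 0.24, edgeR adjusted p = 0.0101) and Angptl8 fell by 1.63 (SE 0.47, 0.0441), 2 of 10 genes against 9.55% of all genes, 4.35% as lower. The Srebf1 call held in 4 of 6 fits without 1 library, with losses without day-5 replicate 1 or 2, and the Angptl8 call in 1, that without day-5 replicate 3. Without the 4 libraries that stood apart both were lost, at −0.99 and −1.48. In the fit of the 18 ZT21 libraries, 5 genes were above NC on day 7 (Acaca, Elovl6, Scd1, Me1 and Angptl8), against 9.42% of all genes, 5.71% as higher. Fasn (adjusted p = 0.0549) and Acly (0.0847), called in the fit of the day-7 libraries, were not called in this one. Angptl8 was called here at 3.64-fold (adjusted p = 0.0293). Without LPS day-7 replicate 1, or without replicate 3, 0 of the 10 were called, and without replicate 2 it was 7. Leaving out NC replicate 1, 2 or 3 gave 1, 0 and 0.

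On day 9, after LPS had ended, Acaca, Elovl6, Scd1, Me1 and Thrsp were lower than on day 7, 5 of 10 genes against 6.73% of all genes, 4.09% as lower. On day 7 the first 4 had been high in replicates 1 and 3. Without the 4 libraries that stood apart, 0 were called. The groups overlapped for all but Thrsp (11.1% of all genes were lower without overlap), which was 339, 373 and 1059 CPM on day 9 and 2411, 1327 and 1151 on day 7 (log2 change −1.47, SE 0.41, edgeR adjusted p = 0.0451). Without day-7 replicate 1 or 3, or day-9 replicate 1 or 2, the count was 0, while it was 8 without day-7 replicate 2 and 7 without day-9 replicate 3. Within day 9, replicate 3 was the highest library for 9 of the genes. Fasn was 833, 958 and 2414 CPM and Acly 197, 245 and 827.

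Angptl8 was the 1 gene of the 10 above NC on day 9, where 0.429% of all genes were called, 0.143% as higher. It was 327, 287 and 169 CPM against 73.1, 24.1 and 43.6 (5.54-fold, log2 2.47, SE 0.49, edgeR adjusted p = 0.0462), without overlap as for 9.74% of all genes, and it was lowest in replicate 3, in which the other 9 were highest. The call held in 2 of 6 fits without 1 library, and was lost without day-9 replicate 1 or 2 or NC replicate 2 or 3, at adjusted p of 0.154 to 0.205. With replicates 1 and 2 of days 3, 5 and 9 summed it was lost as well, leaving 0. Thrsp was below all NC libraries, as for 9.02% of all genes (−1.65, adjusted p = 0.118), and without day-9 replicate 3 it was called at −2.38 (0.00439). The other 8 had log2 changes between −0.31 and 0.10.

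On day 11 none of the 10 was called against NC at ZT21, where the edgeR test called 0.261% of all genes, and at an unadjusted p under 0.05 there was 1 call, against 8.65% of all genes. DESeq2 called 0. Srebf1 was 401, 397 and 432 CPM, below all 3 NC libraries (−0.36, adjusted p = 0.749). Scd1 was 3777, 7555 and 5339 (−0.76, 0.702) and Thrsp 1146, 895 and 1156 (−0.79, 0.626), also below NC. Angptl8 was 155, 75.6 and 129, above NC without overlap (1.35, 0.389). Without overlap, 8.17% of all genes were lower and 7.89% higher. From day 9 to day 11, 0 of the 10 and 0.0124% of all genes were called, with 1 of the 10 and 5.93% of all genes at an unadjusted p under 0.05 and 0 called by DESeq2.

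**Figure D4:**
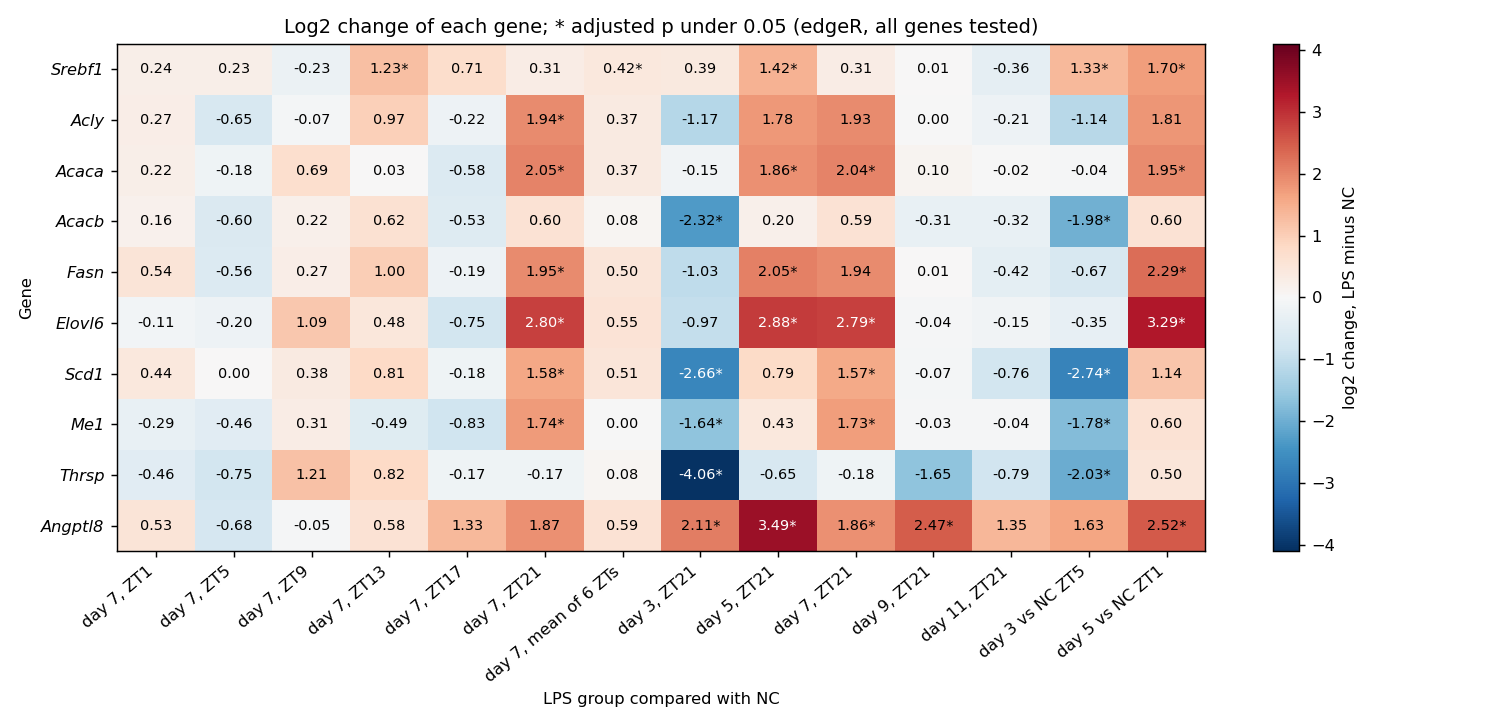
The grid gives the log2 change of each of the 10 genes (rows) between an LPS group and NC (columns), with red for higher in LPS, blue for lower, and asterisks for adjusted p under 0.05 in edgeR. Blue is deepest on day 3, where Thrsp is at −4.06, and Angptl8 is above 1 in each of the columns at ZT21.

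Over all 48 libraries, Thrsp spanned the widest range, 56.2-fold from 42.9 CPM in NC ZT9 replicate 1 to 2411 in LPS ZT21 replicate 1. Angptl8 spanned 48.5-fold, from 14.8 CPM in LPS ZT5 replicate 2 to 717 on day 5. Scd1 spanned 36.7-fold and Elovl6 32.2-fold, and Srebf1 the least, 8.83-fold. LPS ZT21 replicate 1 of day 7 held the highest value of Fasn, Acaca, Acacb, Acly, Scd1, Thrsp and Me1. Day-3 libraries held the lowest value of Fasn, Acacb, Acly, Scd1 and Me1.

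As a description, levels of the 10 genes were correlated in pairs, across the 16 group means and, after taking out group means, within groups over the 48 libraries. The points share libraries, sequencing depth and scaling, and no p is given. Fasn and Acly went together most closely, at r = 0.97 over groups and 0.93 within groups, and Acaca and Elovl6 had 0.95 and 0.90. Of the 28 pairs without Srebf1 and Angptl8, 26 had r over 0.5 across groups and 27 within groups. The transcription factor itself went with the enzymes more loosely. Its 9 pairs had a median r of 0.53 over groups and 0.41 within groups, and with Me1 it was −0.01 over groups. Angptl8 stood furthest from the rest, with a median of 0.26 over groups and 0.18 within, and −0.09 and −0.17 with Scd1.

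Among genes outside the 10 with a mean log2 CPM of at least 1, the group means most like the standardised mean of the 10 were those of Rpia (Pearson r = 0.947 over 16 groups), Gbe1 (0.939), Eno1 (0.916), Khk (0.916), Gm4735 (0.915) and Gpi1 (0.905). Rpia works in the pentose phosphate pathway, Gbe1 in glycogen synthesis, Khk phosphorylates fructose, and Eno1 and Gpi1 are enzymes of glycolysis. Least alike were Gm3734 (−0.910), Tk2 (−0.877) and Ccndbp1 (−0.877). Of the 10 themselves, Fasn was nearest to their mean at 0.971 and Angptl8 furthest at 0.443.

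Other genes of the pathway were counted in 4 lists of 70 genes, all tested. For the effect averaged over day 7, 1 of 20 regulators was called, the clock repressor Nr1d1 (log2 change 0.84, edgeR adjusted p = 0.00885). Of 17 genes for sugar and carbon supply and NADPH, 1 was higher, G6pdx, which opens the pentose phosphate pathway (1.09, adjusted p = 0.0228). Of 21 genes for fatty acid use and glycerolipids, 3 were higher, the desaturases Fads2 (0.61), Fads1 (0.37) and Scd2 (0.66). Of 12 fasting and insulin-repressed genes, 3 were higher, Ppargc1a (0.55), Cpt1a (0.33) and Sds (0.50). Of all genes, 5.53% were called higher in this comparison.

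At ZT21 on day 7, 6 of the 10 genes had been called higher, with the high values in LPS replicates 1 and 3. There, 4 of the 17 supply genes were higher and 0 lower, G6pdx (log2 change 3.41, edgeR adjusted p = 0.00905), Pgd (1.22), Tkt (0.59) and Cs (0.64). In this comparison 8.9% of all genes were called, 5.52% as higher. Of the 21 fatty acid use genes 5 were higher, with Fads2 at 1.80, Scd2 at 2.01, Fads1 at 1.24 and Gpam, which starts glycerolipid synthesis, at 1.59. The insulin receptor substrate Irs2 (−1.83) and Insig2 (−0.70), which holds the Srebf1 product in the endoplasmic reticulum, were the 2 regulators called lower, and Nr1d1 (1.75) was the 1 called higher. Fgf21 was higher (3.51) and Tat and Sds lower (−1.35 and −1.36) among the fasting genes. These values come from the same 3 LPS libraries as those of the 10 genes. Replicates 1 and 3 stood apart, and their clock genes read 18.2 and 18.8 h. The lists were not refitted without them. Nr1d1, Insig2 and Irs2 were also called for a 24 h rhythm in LPS livers. The part of clock time in these changes was not tested.

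On day 3, where Thrsp, Scd1, Acacb and Me1 were low, 7 of the 17 supply genes were lower than in NC at ZT21 and 0 higher. Of all genes, 10.3% were called lower and 10.3% higher. Pklr, liver pyruvate kinase, changed by −1.71 (edgeR adjusted p = 0.000165), the citrate exporter Slc25a1 by −0.89, and Tkt by −0.88. The phosphatidate phosphatases Lpin1 (−4.49) and Lpin2 (−1.93) and Acsl1 (−1.15) were among 5 of 21 fatty acid use genes called lower. Among the regulators 2 were higher, Nr1d1 at 3.91 and the repressor Nr0b2 at 3.15, and 2 lower, Mlxipl, the carbohydrate-response factor, at −0.45 and Rxra at −0.47. For the regulators as a list, both counts are near the share of all genes. Fasting genes were 5 lower and 0 higher of 12, with Angptl4 at −3.99. Against NC at ZT5 the supply list had 5 lower and 0 higher, Slc25a1 at −0.84 among them, where 3.38% of all genes were lower and 3.94% higher. Of the regulators only Nr1d1 was called (2.65), 3 fatty acid use genes were lower (Elovl1, Elovl5 and Plin2), with neither Lpin gene nor Acsl1 among them, and 1 fasting gene was lower, Angptl4 at −3.50.

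On day 5 the supply list had 5 higher and 0 lower of 17, among them Khk (log2 change 0.93, edgeR adjusted p = 0.0114), Cs (0.84) and Pgd (1.13). Against NC at ZT21, 11.6% of all genes were called that day, 5.91% as higher. Mid1ip1, the close relative and partner of Thrsp, was higher (1.53, adjusted p = 0.00182), and was higher as well against NC at ZT1 (1.41). Nr0b2 (1.78) was the other regulator called higher at ZT21, and Rxra (−0.66) and Usf2 (−0.36) were lower. Fatty acid use genes were 3 lower and 0 higher of 21, Lpin1 at −2.82, Lpin2 at −1.39 and Pnpla2 at −0.74. Fasting genes were 6 lower and 2 higher of 12, with Angptl4 at −3.32 and Sds at −1.86. From day 3 to day 5, 11 of the 17 supply genes rose and 0 fell, led by Pklr (2.34) and Khk (1.62), beside 3.19% of all genes called higher. On days 9 and 11, 0 supply genes and 0 regulators were called against NC, where 0.429% and 0.261% of all genes were called. On day 9, Lpin1 (−2.69) and Lpin2 (−1.31) were lower among fatty acid use genes and Foxo1 (−0.71) and Sds (−1.76) among fasting genes, and on day 11 Lpin2 (−1.25) and Tat (−1.78). Medians of the supply list were 0.09 for the day-7 average, 0.38 at ZT21 and −0.38 on day 3, beside 0.01, 0.02 and 0.01 over all genes tested.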

How the data were processed

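Livers were sequenced as 48 strand-specific messenger RNA libraries in read pairs of 150 bases, per the labels' protocols. The authors deposited 1 table of whole-number counts per gene. Per the submitters' processing notes, the tools were STAR 2.5.2b and StringTie 2.2.1, with FastQC 0.11.5, SAMtools 1.3.1 and DESeq2 1.38.1, and the build was GRCm38. How reads were counted, and with which strand setting, is not given in the sources used here. Library totals were 28.2 to 45.3 M counts, which sets counting precision only.

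Counts were analysed in R 4.3.3 with edgeR 4.0.16 (filterByExpr, TMM, robust quasi-likelihood fit, Benjamini-Hochberg over all genes tested, threshold 0.05) and limma 3.58.1. There were 4 models, and no sample was dropped. The 36 day-7 libraries were fitted with 1 mean per group (16544 genes tested) and, for rhythms, with a 24 h cosine and sine per arm. The 18 ZT21 libraries were fitted with 1 mean per group (16101 genes), and days 3 and 5 were set against NC at ZT5 and ZT1 in a fit of all 48 (16858 genes). CPM per kb used the merged length of all exons of a gene in the GRCm38 annotation. The scripts were tested on simulated data.

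The 10 genes are reported in every comparison. From each pathway list up to 4 called genes per comparison could be named, by smallest p, and genes like the mean of the 10 were the 6 highest and 3 lowest by correlation of group means. The members and lists were chosen with earlier results of these data known. Alternatives were DESeq2 1.42.0, its size factors, all 48 libraries in the fit, any difference between ZTs, no filter on low counts, the 6 libraries compared alone, a replicate block, summed replicates, leaving out the 4 libraries that stood apart and leaving out 1 library. Leaving out ZT21 was chosen after seeing the data.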

Additional observations from a re-analysis of the deposited data

Results flagged for a closer look

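The change with LPS on day 7 differed between times of day for 2 of the 10 genes, against 1.7% of all genes. Acaca had an adjusted p of 0.0446 and Elovl6 one of 0.0441 for the interaction of LPS with ZT in edgeR's quasi-likelihood test. For both genes the 2 highest LPS values were at ZT21, in replicates 1 and 3, and with the 4 libraries that stood apart left out neither was called. Leaving out 1 of the 36 libraries, Acaca was called in 9 fits and Elovl6 in 10, and with a replicate block or with no filter on low counts neither was called.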

How the results depend on the processing

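Counts of the 10 genes called changed with the settings as follows. For the LPS effect averaged over ZTs the count was 1, and 2 with all 48 libraries in the fit, 3 with DESeq2 and 2 with a replicate block (all genes 1545, 1905, 2033 and 1489). In fits of only the 6 libraries compared it was 1 at ZT9, 0 at ZT13, 1 at ZT17, 0 at ZT21, 0 for day 7 against NC, 0 for day 9, 1 for day 11, 0 from day 5 to 7, 0 from day 7 to 9 and 2 for day 5 against NC ZT1. Without the 4 libraries that stood apart it was 0 at ZT21, 0 for the interaction, 4 for the NC rhythm, 0 for day 7 against NC, 0 from day 5 to 7 and 0 from day 7 to 9. With no filter on low counts it was 0 for the interaction, 1 for day 7, 0 for day 9, 1 from day 5 to 7, 0 from day 7 to 9 and 3 for day 5 against NC ZT1. With replicates 1 and 2 of days 3, 5 and 9 summed it was 2 for day 5 against NC at ZT21, 0 for day 9, 2 from day 3 to 5, 0 from day 5 to 7, 0 from day 7 to 9 and 2 for day 5 against NC ZT1. DESeq2 gave 4 for the interaction (all genes 282 to 1725) and 2 for day 9 (69 to 285), all 48 libraries gave 0 for day 9, the test of any difference between ZTs gave 10 for the LPS rhythm (all genes 2646 to 4188), and leaving out ZT21 gave 0 for the interaction.

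Among results called in the main fit or in the alternative, directions turned only where the 4 libraries that stood apart were left out. Signs of results called in neither were not compared. At ZT21 Acly was then −0.12, Me1 −0.049 and Scd1 −0.14. In the fit of ZT21 libraries on day 7 Me1 was −0.046 and Scd1 −0.14, and from day 7 to 9 Me1 was 0.013 and Scd1 0.072. The causes were not tested.

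Leaving out 1 library at a time, counts ran from 1 to 4 for the average, 0 to 1 at ZT13, 0 to 6 at ZT21, 0 to 4 for the interaction, 1 to 3 for the NC rhythm and 4 to 8 for the LPS rhythm. They ran from 4 to 5 on day 3, 2 to 5 on day 5, 0 to 7 on day 7, 0 to 2 on day 9, 3 to 10 from day 3 to 5, 0 to 3 from day 5 to 7, 0 to 8 from day 7 to 9, 4 to 4 for day 3 against NC ZT5 and 2 to 6 for day 5 against NC ZT1. For ZT1, ZT5, ZT9, ZT17, the rhythm difference, day 11 and days 9 to 11 they were 0. Where a group kept 1 library, it was assumed to vary like the others.

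Deviations from group means showed no sign that replicate numbers paired the samples, though with 3 libraries per group a weak pairing could be missed. Of 30 same-numbered pairs 0 had a correlation of deviations over 0.1, with a median of 0.0094. With the replicate block the count was 2 for the average, 0 for the interaction and 3 from day 7 to 9. Each group had 3 libraries, and the spread between them limits what the tests can show.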
